A study of Mus musculus with 9 samples.

Results

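The 9 genes described here encode enzymes that remove superoxide and peroxides: the superoxide dismutases Sod1, Sod2 and Sod3, the catalase gene Cat, and the glutathione peroxidases Gpx1, Gpx3, Gpx4, Gpx7 and Gpx8. They were chosen by symbol from 17753 genes measured by RNA-seq, and each had a single row in the deposited matrix. The mice were wild-type C57BL/6J males aged 3 months. Brown fat, white fat and the soleus were each sampled in 3 libraries, 9 in all. The labels state 3 mice and do not say which libraries share a mouse, nor which depot the white fat came from. The p-values therefore measure the spread between these libraries. Values are FPKM, a fragment count scaled by transcript length and by library size, and a ± gives the SD of the 3 libraries of a tissue.

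Superoxide is formed when oxygen takes up a single electron, largely in the respiratory chain and at NADPH oxidases. Dismutases turn it into hydrogen peroxide, each in its own place: Sod1 in the cytosol and the space between the mitochondrial membranes, Sod2 in the mitochondrial matrix, and Sod3 outside the cell. Catalase removes the peroxide in peroxisomes, and glutathione peroxidases reduce it at the expense of glutathione. These tissues use mitochondria differently: brown adipocytes for heat, soleus fibres for sustained contraction, and white adipocytes, which mainly store triglyceride, less than either.

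The glutathione peroxidases fall into classes by the codon at their active site, which is shown here because it decides whether the messenger needs the selenocysteine machinery. In the GENCODE M21 transcripts paired with the members' RefSeq accessions (mouse GRCm38), Gpx1, Gpx3 and Gpx4 each held a single in-frame TGA, annotated as selenocysteine, while Gpx7 and Gpx8 held none. The windows below run 5′ to 3′ along the transcript for 30 bases, with the active-site codon in capitals.
Gpx1: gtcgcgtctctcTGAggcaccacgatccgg
Gpx3: gtagccagctacTGAggtctgacagaccaa
Gpx4: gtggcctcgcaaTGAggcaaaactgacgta
Gpx7: gtagctagcgaaTGTggcttcacagaccag
Gpx8: gtggctagtgacTGCcgcttcacagacaag
These windows lie at chr9:108339439-108339468 (plus strand, exon 1), chr11:54907244-54907273 (plus strand, exon 2), chr10:80054725-80054754 (plus strand, exon 3), chr4:108403415-108403444 (minus strand, exon 2) and chr13:113045646-113045675 (minus strand, exon 2). The codon is number 47 of 201 in Gpx1, 73 of 226 in Gpx3 and 73 of 197 in the shorter Gpx4 transcript. It is number 56 of 186 in Gpx7 and 79 of 209 in Gpx8, which have the cysteine codons TGT and TGC there. Gpx7 and Gpx8 shared 24 of the 30 bases, the most of any pair, and Gpx1 and Gpx3 shared 14, the fewest.

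Summed FPKM ran from 214066 to 353399 per library, and 8487 to 9305 genes reached 1 FPKM. The relative depth, read from the steps between low values, spanned 3.58 times from white fat replicate 2 to white fat replicate 3, and its part in the results was not tested. For white fat replicate 3 the commonest step ratio held 113 of 2028 low genes and the next 107, so 3.58 is a rough estimate. The tissue labels were checked against marker genes. The summed FPKM of 6 brown adipocyte markers ran from 11787 to 13149 in brown fat, 38.0 to 177 in white fat, against 4258 to 5633 in soleus, where Cox8b is also a muscle gene. That of 5 white adipocyte markers ran from 118 to 153, from 4551 to 5822 and from 27.8 to 158 in the same order, and that of 4 slow fibre markers from 2.54 to 6.07, from 0.330 to 0.903 and from 21292 to 25420. None of these markers was listed at 0 in all libraries of a tissue. White fat also carried more macrophage signal (8 markers summing to 46.3 to 54.1 in brown fat, 500 to 610 in white fat, against 35.0 to 48.9 in soleus) and matrix signal (7 markers, 242 to 269, 1519 to 1626 and 377 to 498). Endothelial markers (6, from 96.2 to 99.03, 44.3 to 68.6 and 47.3 to 52.3) and smooth muscle markers (5, from 21.3 to 25.2, 47.7 to 63.2 and 94.3 to 104) differed too. Mesothelial markers (4, from 1.19 to 1.42, 58.1 to 88.5 and 0.245 to 1.87, Wt1 at 0 in brown fat) and hepatocyte markers (4, from 0.0577 to 0.191, 5.31 to 6.48 and 0.133 to 0.412, Ttr at 0 in brown fat) were higher in white fat. Of 4 fast fibre markers, the sum was 25.5 to 192 in brown fat, 1.61 to 3.41 in white fat, against 25149 to 30491 in soleus. General adipocyte markers, 4 of them, summed to 2084 to 2397, 4718 to 5223 and 28.4 to 147. Erythroid markers were low in all tissues at 4.61 to 7.81, 6.39 to 11.6 and 1.37 to 2.41 FPKM, for 3 genes that did not include the globins. In whole tissue, fewer cells of a type and less RNA per cell cannot be told apart, and the part that these cell types have in the results below was not tested.

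The sum over the 9 genes was 3428 ± 194 FPKM in brown fat, 2334 ± 278 FPKM in white fat, against 445 ± 20.0 FPKM in soleus. Gpx3, Gpx8 and Sod2 stood out for brown fat, Gpx1, Sod3 and Gpx7 for white fat, and soleus had the lowest mean of every gene except Sod2, whose lowest mean was in white fat (for Gpx7 the order of soleus and brown fat turned with median of ratios scaling). Against white fat, brown fat had 5 of the 9 genes higher and 3 lower at a limma adjusted p under 0.05, where 72.8% of the 9913 genes tested were called in either direction, 38% higher and 34.8% lower. A gene was tested if at least 3 libraries reached 1 FPKM, and all 9 members did. Against soleus, brown fat had 8 higher and none lower, where 78.5% of all genes were called, 52.9% higher and 25.6% lower. White fat had 8 higher and 1 lower than soleus, where 84.2% were called, 54.5% higher and 29.7% lower. The median log2 fold change of the 9 genes, beside that of all genes tested, was 0.38 against 0.03 for brown over white fat, 1.91 against 0.29 for brown fat over soleus and 1.53 against 0.35 for white fat over soleus. These comparisons share libraries pairwise, so their counts are not independent.

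**Figure D1:**
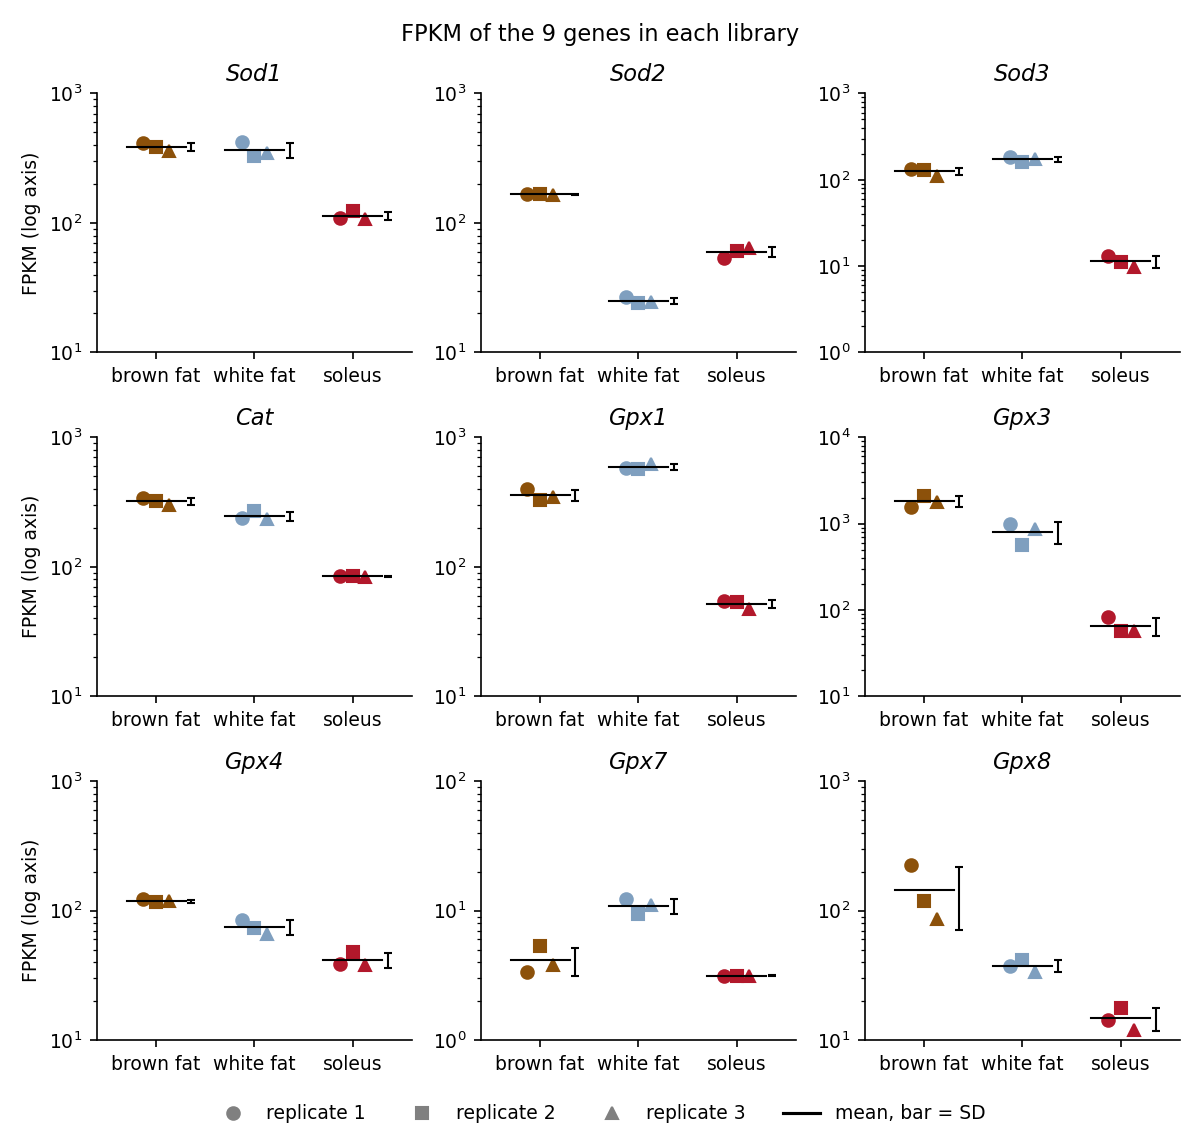
FPKM (log axis) of each gene in each library of brown fat, white fat and soleus, with symbols for replicate numbers, a line at the mean and a bar of 1 SD. The soleus mean is lowest for every gene but Sod2 (for Gpx7 it is above brown fat with median of ratios scaling), and the 3 brown fat libraries of Gpx8 spread from 86.3 to 225 FPKM.

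Sod1 was the most abundant dismutase in every tissue. It stood at 411, 389 and 361 FPKM in the brown fat libraries, 424, 327 and 350 in the white fat libraries and 110, 123 and 108 in those of soleus. The libraries of both fats overlapped and all lay above those of soleus. The ratio of means was 3.41 for brown fat over soleus (log2 difference 1.76, SE 0.11, limma adjusted p = 9.8e-08) and 3.24 for white fat over soleus (1.68, SE 0.11, adjusted p = 1.1e-07). Brown over white fat gave a log2 difference of 0.08 with a 95% interval of -0.17 to 0.34 (limma adjusted p = 0.53).

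Sod2, the manganese enzyme of the mitochondrial matrix, was ordered differently, with brown fat highest and white fat lowest. It stood at 169, 167 and 165 FPKM in the brown fat libraries, 26.8, 24.2 and 24.3 in the white fat libraries and 53.7, 61.1 and 63.8 in those of soleus, and no 2 tissues overlapped. Its brown fat libraries varied little, with an SD of 1.68 around 167 FPKM. The mean was 6.66 times higher in brown than in white fat (log2 difference 2.69, SE 0.08, limma adjusted p = 1.3e-09) and 2.81 times higher than in soleus (1.48, SE 0.08, adjusted p = 3.1e-08). White fat lay below soleus by -1.21 log2 units (SE 0.08, adjusted p = 1.2e-07). Sod2 was the only 1 of the 9 genes lower in white fat than in soleus.

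Sod3, the secreted dismutase that binds to matrix around vessels, was highest in white fat. It stood at 133, 130 and 112 FPKM in the brown fat libraries, 182, 161 and 173 in the white fat libraries and 13.3, 11.2 and 9.69 in those of soleus, again without overlap. Brown fat was lower than white fat by a log2 difference of -0.46 (SE 0.11, limma adjusted p = 0.0037) and higher than soleus by 3.35 (SE 0.11, adjusted p = 5.3e-10), and white fat exceeded soleus by 3.81 (SE 0.11, adjusted p = 2.3e-10). Of the marker sums above, that of general adipocyte markers had the order of Sod3 over all 3 tissues without overlap. The 4 genes of that sum were split between the fats. Adipoq, at 1008 FPKM in brown and 2876 in white fat, and Cidec, at 602 and 1598, were higher in white fat. Pparg, at 149 and 66.5, and Lipe, at 517 and 469, had higher means in brown fat. The white adipocyte, macrophage, matrix, mesothelial and hepatocyte sums were highest in white fat too, with the matrix sum lower in brown fat than in soleus. The endothelial sum was highest in brown fat and the smooth muscle sum in soleus. Most of that soleus sum came from Smtn, at 56.5 FPKM in soleus and 6.49 in white fat. Tagln, at 17.2 and 14.9 FPKM, also had its highest mean in soleus. Acta2, at 22.7 FPKM in soleus and 32.1 in white fat, had its highest mean in white fat. Myh11 was highest in white fat too, and Cnn1 in brown fat.

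Copper chaperones were examined with these enzymes. Ccs, which loads copper into Sod1, stood at 46.9 ± 6.73 FPKM in brown fat, 16.5 ± 1.58 in white fat, against 13.9 ± 1.404 in soleus. It rose in brown fat over white fat by 1.45 log2 units (SE 0.12, adjusted p = 7.9e-07), where Sod1 did not pass, so the ratio of Sod1 to Ccs was 8.37 ± 1.4 in brown fat, 22.2 ± 1.68 in white fat, against 8.25 ± 1.51 in soleus. Atox1, which carries copper to the secretory pathway where Sod3 is made, stood at 341 ± 24.96, 157 ± 20.0 and 97.8 ± 5.05 FPKM in brown fat, white fat and soleus. Other members of the glutathione peroxidase family in the same list were near 0, with Gpx5 and Gpx6 listed at 0 in all 9 libraries and Gpx2 above 0 only in white fat replicate 2, at 0.0517 FPKM. Both tested genes of this list of 5, Ccs and Atox1, were higher in brown fat in each of its comparisons, and Atox1 alone was higher in white fat than in soleus, which missed the threshold with median of ratios scaling.

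**Figure D2:**
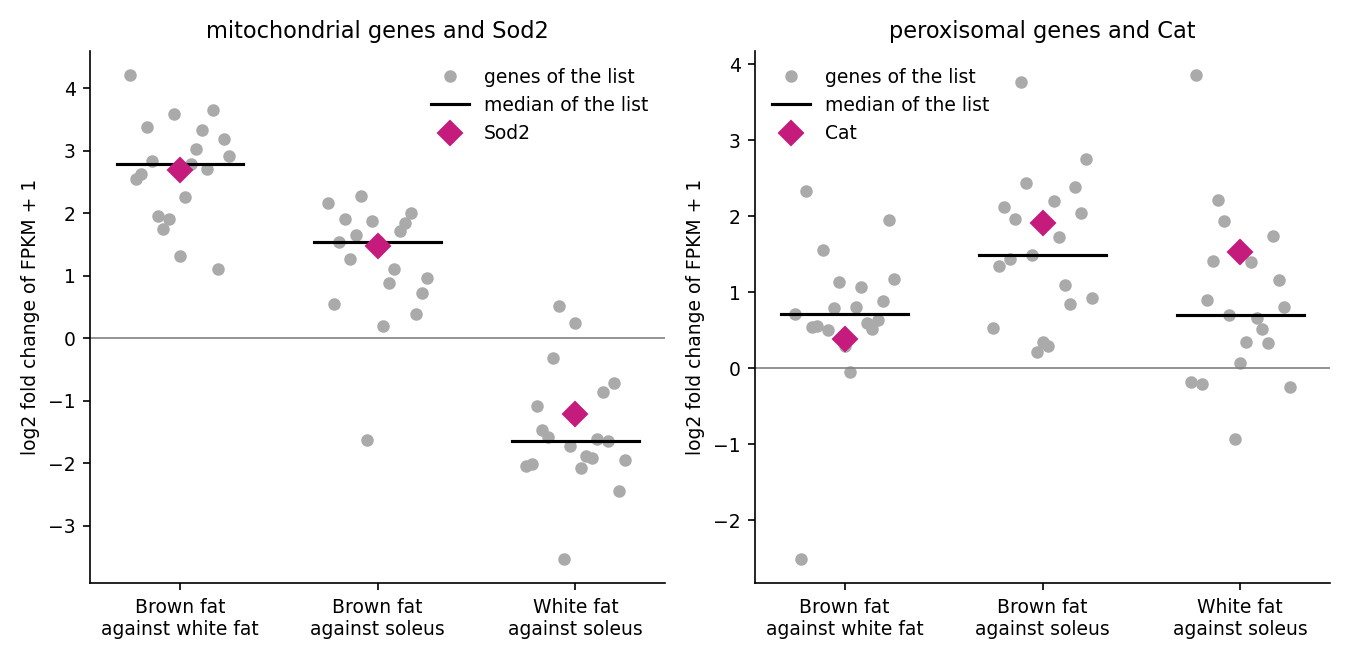
Log2 fold change of FPKM + 1 (first tissue over second) for 19 tested mitochondrial genes with Sod2 and for 19 tested peroxisomal genes with Cat, as dots with the list median as a line. Sod2 lies at 2.69, 1.48 and -1.21 beside list medians of 2.78, 1.54 and -1.65, and Cat at 0.38, 1.91 and 1.53 beside 0.71, 1.49 and 0.70.

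The level of Sod2 was set beside that of other mitochondrial genes. Of 19 tested genes of the matrix and inner membrane, 19 stood higher in brown than in white fat, with Suclg1, of the citrate cycle, at 828 against 65.3 FPKM. In brown fat against soleus 17 were higher and 1 lower (15 and 1 with median of ratios scaling). Hspd1, a matrix chaperone gene, was higher at 177 against 35.6 FPKM, and the lower one was Idh2, at 215 against 664 FPKM. White fat had 17 lower and 2 higher than soleus, with Idh2 at 56.9 against 664 and the complex III gene Uqcrc1 at 109 against 600 FPKM. The higher ones were Hspd1, at 51.4 against 35.6 FPKM, which missed the threshold with median of ratios scaling, and the protease gene Lonp1, at 31.9 against 26.9 FPKM, which turned lower with median of ratios scaling. Atp5a1, of the ATP synthase head, had the highest mean of the list over the 9 libraries, at 1736 FPKM in brown fat, 297 in white fat, against 1198 in soleus.

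Sod2 is not in that list, and its level equalled 1.22, 1.15 and 1.18% of the summed FPKM of the list in the brown fat libraries, 1.34, 1.38 and 1.30% in the white fat libraries and 0.880, 0.915 and 0.919% in those of soleus. This ratio of Sod2 to the mitochondrial sum was lower in every brown fat library than in every white fat library, while the level of Sod2 was 6.66 times higher in brown fat. Prdx3, the peroxiredoxin of the matrix, removes peroxide and is not in the list either. It equalled 2.37 ± 0.198%, 4.72 ± 0.220% and 2.43 ± 0.238% of the same sum in brown fat, white fat and soleus. The ratio of Sod2 to Prdx3 was 0.472, 0.526 and 0.503 in the brown fat libraries, 0.290, 0.278 and 0.285 in the white fat libraries and 0.374, 0.339 and 0.410 in those of soleus, with no overlap between tissues. These ratios within a library do not change when a library is scaled by 1 factor, though quantile normalization can change them.

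Cat stood at 337, 321 and 302 FPKM in the brown fat libraries, 237, 269 and 232 in the white fat libraries and 84.3, 84.2 and 83.9 in those of soleus. Each fat exceeded soleus without overlap, brown fat 3.80 times (log2 difference 1.91, SE 0.09, limma adjusted p = 5.8e-09) and white fat 2.92 times (1.53, SE 0.09, adjusted p = 2.8e-08). Brown fat exceeded white fat by 0.38 (SE 0.09, adjusted p = 0.0025), but this turned to -0.21 with TPM rescaling (adjusted p = 0.061) and -0.58 with quantile normalization (adjusted p = 7.9e-04). The direction of Cat between the fats therefore depends on the scaling.

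Of 19 tested genes of peroxisome formation and oxidation, 17 were higher and 1 lower in brown fat relative to white fat, which became 9 and 3 with TPM rescaling. Abcd3, a transporter of the peroxisomal membrane, stood at 125 against 24.0 FPKM and Pex6, of the import machinery, at 61.1 against 15.3 FPKM, and the lower one was Abcd2, an importer of very long chain fatty acids, at 20.5 against 118 FPKM. All 19 were higher in brown fat than in soleus (15 higher and 0 lower with median of ratios scaling). Ehhadh, of peroxisomal beta-oxidation, led at 55.7 against 3.05 FPKM, with Pex6 at 61.1 against 8.23 FPKM. White fat had 14 higher and 3 lower than soleus, Abcd2 at 118 against 7.23 and Ehhadh at 18.4 against 3.05 FPKM, with the import gene Pex10 at 3.17 against 6.94 FPKM on the lower side. Pex7 was lower as well, at 11.4 against 13.8 FPKM, and turned higher with TPM rescaling, where 18 genes were higher and 1 lower (11 and 5 with median of ratios scaling). Cat, which is not in the list, equalled 31.8, 33.3 and 33.4% of the summed FPKM of the list in the brown fat libraries, 36.2, 41.4 and 38.9% in the white fat libraries and 33.3, 32.6 and 31.1% in those of soleus.

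Gpx3, 1 of the selenocysteine enzymes, had the highest mean of the members in both fats, and in soleus Sod1 and Cat were higher. The gene encodes the peroxidase that is secreted into plasma. It stood at 1545, 2072 and 1799 FPKM in the brown fat libraries, 994, 561 and 873 in the white fat libraries and 83.7, 56.5 and 56.7 in those of soleus, and ranked 21 to 32 among all genes in the brown fat libraries, 22 to 39 in those of white fat and 454 to 708 in those of soleus. The mean was 2.23 times higher in brown than in white fat (log2 difference 1.19, SE 0.22, limma adjusted p = 6.6e-04), 27.5 times higher in brown fat than in soleus (4.78, SE 0.22, adjusted p = 7.3e-09) and 12.3 times higher in white fat than in soleus (3.59, SE 0.22, adjusted p = 5.8e-08). With quantile normalization the difference between the fats was 0.08 (adjusted p = 0.76).

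Gpx1, the cytosolic and mitochondrial enzyme, was highest in white fat, at 397, 330 and 343 FPKM in the brown fat libraries, 584, 566 and 624 in the white fat libraries and 54.8, 53.3 and 47.2 in those of soleus. No library of a tissue overlapped with another tissue. Brown fat lay below white fat by -0.73 log2 units (SE 0.10, limma adjusted p = 6.6e-05), and both lay above soleus, by 2.76 (SE 0.10, adjusted p = 1.0e-09) and 3.49 (SE 0.10, adjusted p = 1.9e-10). Its order over the tissues was that of Sod3, so the marker sums set beside Sod3 stand in the same relation to it.

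Gpx4 is the peroxidase that acts on lipid peroxides in membranes and holds back ferroptosis. It had the smallest differences among the selenocysteine enzymes, with 122, 116 and 118 FPKM in the brown fat libraries, 85.2, 72.9 and 65.7 in the white fat libraries and 38.5, 47.7 and 38.0 in those of soleus. Brown fat exceeded white fat by 0.67 (SE 0.11, limma adjusted p = 3.2e-04; 0.08 and adjusted p = 0.39 with TPM rescaling) and soleus by 1.5 (SE 0.11, adjusted p = 3.7e-07), and white fat exceeded soleus by 0.84 (SE 0.11, adjusted p = 3.9e-05). The mouse genome carries pseudogenes of Gpx4, and whether reads were shared with them was not tested.

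Gpx8 and Gpx7 have cysteine at the active site and sit in the endoplasmic reticulum, where they use peroxide formed in protein folding. They moved in opposite directions between the fats. Gpx8 stood at 225, 119 and 86.3 FPKM in the brown fat libraries, 37.1, 41.8 and 33.5 in the white fat libraries and 14.3, 17.8 and 11.9 in those of soleus. Brown fat was 3.83 times higher than white fat (log2 difference 1.80, SE 0.28, limma adjusted p = 1.8e-04) and 9.78 times higher than soleus (3.10, SE 0.28, adjusted p = 1.7e-06), and white fat was 2.55 times higher than soleus (1.31, SE 0.28, adjusted p = 0.0013). Brown fat replicate 1 held the highest value, and without it the difference between the fats was 1.42 (adjusted p = 5.0e-05). Gpx8 lies within the span of Cdc20b on the opposite strand, and the kit used does not mark strand. Cdc20b was not among the named genes of the matrix, so reads of both cannot be told apart. Mir449a, Mir449b and Mir449c, which lie in the same span, were listed at 0 in all libraries.

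Gpx7 was the lowest member throughout, at 3.37, 5.32 and 3.77 FPKM in the brown fat libraries, 12.2, 9.34 and 10.98 in the white fat libraries and 3.14, 3.15 and 3.11 in those of soleus. White fat exceeded soleus by 1.51 log2 units (SE 0.13, limma adjusted p = 9.8e-07), and brown fat lay below white fat by -1.21 (SE 0.13, adjusted p = 1.0e-05). The brown fat libraries all lay above those of soleus, but the difference of 0.30 (95% interval 0.01 to 0.59) did not pass (limma adjusted p = 0.058). It was 0.41 (adjusted p = 0.016) without brown fat replicate 1, 0.14 (adjusted p = 0.24) without brown fat replicate 2 and 0.30 (adjusted p = 0.045) without white fat replicate 2, and it turned to -0.02 with median of ratios scaling.

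**Figure D3:**
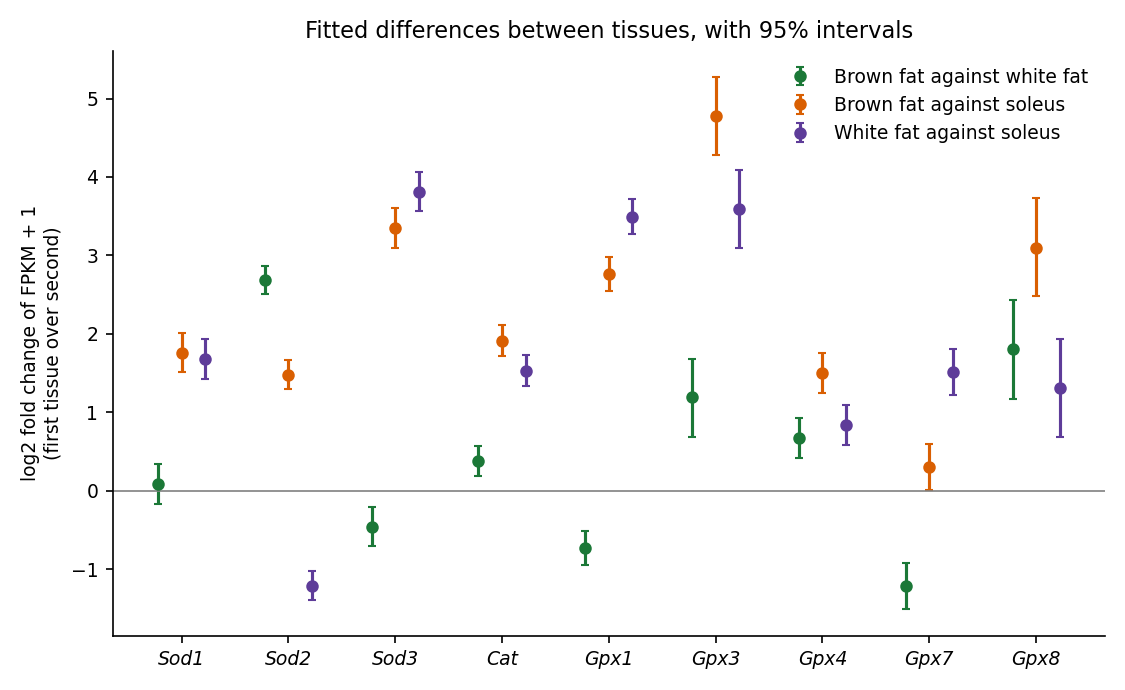
Log2 fold change of FPKM + 1 (first tissue over second) of each gene in the 3 tissue comparisons, with the 95% interval of the limma fit. All genes lie above 0 against soleus except Sod2 in white fat, at -1.21 (Gpx7 in brown fat turns to -0.02 with median of ratios scaling), while between the fats they run from -1.21 for Gpx7 to 2.69 for Sod2.

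Genes of oxidative folding were set beside Gpx7 and Gpx8. Of 10 tested, 7 were lower and 1 higher in brown fat relative to white fat, with Qsox1, a sulfhydryl oxidase gene, at 4.32 against 31.8 FPKM and P4hb, a disulfide isomerase gene, at 34.1 against 140 FPKM. The higher one was the folding oxidase gene Ero1a, at 4.06 against 3.45 FPKM, which turned lower with TPM rescaling. In brown fat against soleus 8 were higher and 2 lower, Pdia6, another isomerase gene, at 55.2 against 21.2 FPKM and Ero1a at 4.06 against 1.01 FPKM on the higher side, and P4hb at 34.1 against 72.4 FPKM and Qsox1 at 4.32 against 8.90 FPKM on the lower. All 10 were higher in white fat than in soleus, with Pdia3 at 109 against 26.7 FPKM and Pdia6 at 76.4 against 21.2 FPKM. The chaperone gene Calr had the highest mean in both fats, though not in soleus, at 135, 198 and 65.5 FPKM in brown fat, white fat and soleus. Between the fats, Gpx7 thus went the way of most of the list, and Gpx8 did not.

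Since scaling by 1 factor shifts all genes of a library together, the fats were also compared relative to the median of all genes. That median was 0.03 log2 units for brown over white fat and -0.52 with TPM rescaling, which divides by a larger total in brown fat. Relative to the median, Cat stood at 0.35 and at 0.31 with TPM rescaling, Gpx4 at 0.64 and 0.61, Sod1 at 0.05 and 0.02 and Sod2 at 2.66 under both. Quantile normalization, which changes the spread of values as well, gave other positions relative to the median, -0.64 for Cat, 0.25 for Gpx4, -1 for Sod1, 0.02 for Gpx3 and 2.36 for Sod2. With TPM rescaling 3 of the 9 genes were called higher and 4 lower in brown fat, and with quantile normalization 3 and 5. Sod2 and Gpx8 were higher, and Sod3, Gpx1 and Gpx7 lower, in brown fat under all 5 scalings. Against soleus the scaling changed no call, and the direction of Gpx7 alone turned. Median of ratios scaling moved the median of all genes from 0.29 to -0.02 for brown fat over soleus and from 0.35 to -0.04 for white fat over soleus, and TPM rescaling moved the second to 0.93.

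**Figure D4:**
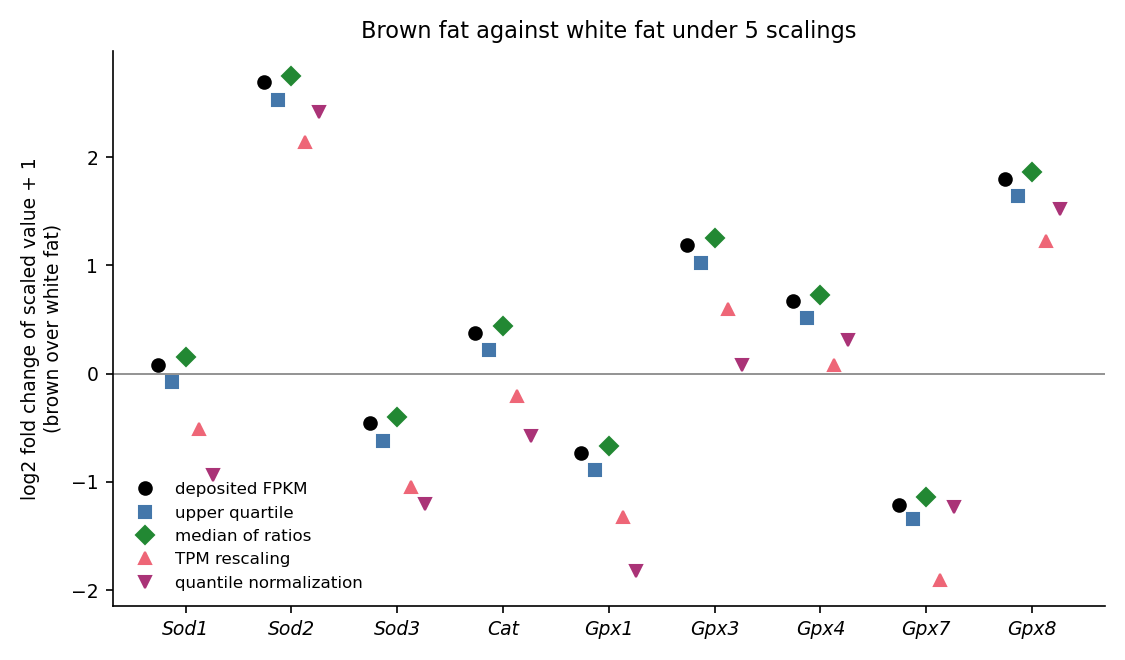
Log2 fold change of brown over white fat (scaled value + 1) for each gene with the deposited FPKM and 4 other scalings. Sod1 and Cat change sign between scalings, Gpx3 and Gpx4 come near 0 under one of them, and the other 5 genes keep their direction and their call.

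Within a library the make-up of each family does not change with scaling by 1 factor, though quantile normalization can change it. Sod2 held 23.7, 24.4 and 25.9% of the summed dismutase FPKM in the brown fat libraries, 4.23, 4.71 and 4.44% in the white fat libraries and 30.4, 31.3 and 35.2% in those of soleus. The Sod3 share was 18.4 ± 0.730% in brown fat, 30.6 ± 1.63% in white fat, against 6.20 ± 1.15% in soleus, and Sod1 held the rest, 57.0 ± 0.625%, 64.9 ± 1.83% and 61.5 ± 1.82%. The cytosolic and secreted forms thus made up most of the summed dismutase FPKM in every tissue. The mitochondrial form had its smallest share in white fat and its largest in soleus. No 2 tissues overlapped in the Sod2 or the Sod3 share. Each of these differences had p = 0.1 in a two-sided exact permutation test, the smallest that 3 against 3 libraries allow.

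Among the glutathione peroxidases, Gpx3 held 67.4, 78.4 and 76.6% of the summed FPKM in the brown fat libraries, 58.0, 44.8 and 54.3% in the white fat libraries and 43.0, 31.7 and 36.2% in those of soleus. The Gpx1 share was 14.8 ± 2.42% in brown fat, 39.4 ± 5.59% in white fat, against 29.4 ± 1.03% in soleus. The Gpx4 share was 4.90 ± 0.481%, 4.96 ± 0.869% and 23.6 ± 3.51%. It overlapped between the fats (exact permutation p = 1), and soleus stood above both (exact permutation p = 0.1 each), although the level of Gpx4 was lowest there. Gpx8 held 6.00 ± 3.34%, 2.53 ± 0.705% and 8.31 ± 1.45%, and Gpx7 0.170 ± 0.0283%, 0.714 ± 0.0319% and 1.79 ± 0.185%. The ratio of Cat to the summed glutathione peroxidases was 0.132 ± 0.0132 in brown fat, 0.166 ± 0.0426 in white fat, against 0.480 ± 0.0510 in soleus, with overlap between the fats (exact permutation p = 0.3) and a higher value in soleus than in each fat (p = 0.1 each, exact permutation). In all, 18 such comparisons were made, and at the limit of 0.1 none could pass 0.05.

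**Figure D5:**
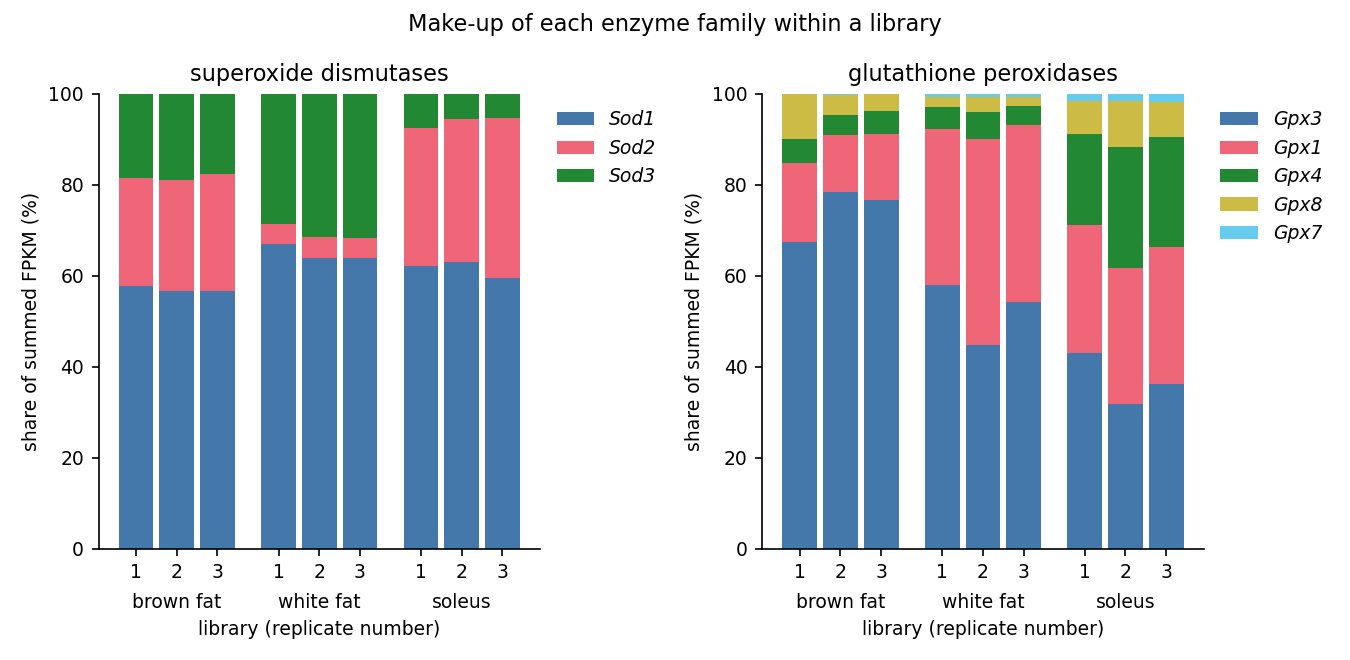
Share (%) of each gene in the summed FPKM of its family in every library, stacked to 100%. The Sod2 block is 4.23 to 4.71% in white fat against 23.7% or more elsewhere, and Gpx3 fills 67.4% or more of the glutathione peroxidases in brown fat.

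The order of levels within a tissue also differed. In brown fat the order by mean was Gpx3, Sod1, Gpx1, Cat, Sod2, Gpx8, Sod3, Gpx4 and Gpx7, where the libraries of Sod1 and Gpx1, of Gpx1 and Cat, and of neighbours from Sod2 to Gpx4 overlapped. In white fat it was Gpx3, Gpx1, Sod1, Cat, Sod3, Gpx4, Gpx8, Sod2 and Gpx7, and only Gpx3 and Gpx1 overlapped. In soleus it was Sod1, Cat, Gpx3, Sod2, Gpx1, Gpx4, Gpx8, Sod3 and Gpx7, with overlap of neighbours from Gpx3 to Gpx4 and of Gpx8 and Sod3.

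Peroxiredoxins and the thioredoxin system share the substrate of catalase and the glutathione peroxidases. Of 14 tested, 10 were higher and 2 lower in brown fat relative to white fat (7 and 4 with TPM rescaling). The mitochondrial members led, Prdx3 at 335 ± 20.5 against 88.2 ± 3.73 FPKM and the reductase gene Txnrd2 at 35.3 against 9.08 FPKM, and Prdx4, of the endoplasmic reticulum, at 14.3 against 24.3 FPKM and Prdx6, a cytosolic peroxiredoxin gene, at 86.8 against 130 FPKM were lower. In brown fat against soleus 13 were higher and 1 lower (7 and 1 with median of ratios scaling), with Txnrd2 at 35.3 against 6.11 and Prdx2, an abundant cytosolic form, at 181 against 218 FPKM. Txnip, the thioredoxin-interacting protein gene, had the highest mean of the list in both fats, though not in soleus, at 486 FPKM in brown fat, 340 in white fat, against 148 in soleus. White fat against soleus split into 6 higher, with Prdx4 at 24.3 against 8.20 and Txnip leading, and 7 lower, with Prdx2 at 90.1 against 218 and the mitochondrial thioredoxin gene Txn2 at 73.7 against 172 FPKM.

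Glutathione itself is made and recycled by a small set of enzymes. Of 7 tested, 3 rose and 3 fell in brown fat relative to white fat (2 and 5 with TPM rescaling). Of all genes tested, 38% rose and 34.8% fell. On the higher side the synthetase gene Gss stood at 15.7 against 8.31 FPKM and Chac2, of glutathione breakdown, at 9.22 against 4.21. On the lower side Ggt5, a cleaving enzyme of the cell surface, stood at 0.782 against 5.91 FPKM and Chac1 at 0.470 against 2.07 FPKM. Against soleus, brown fat had 3 higher, led by Gss at 15.7 against 3.36 FPKM and Gclm, the modifier subunit of the rate-limiting ligase, which had the highest mean of the list over the 9 libraries but not within any tissue, at 14.6 against 3.83 FPKM, and 2 lower, Chac1 at 0.470 against 6.22 and Chac2 at 9.22 against 12.1 FPKM. White fat had 5 higher and 2 lower than soleus, with Ggt5 at 5.91 against 0.692 FPKM and Gclm at 11.99 against 3.83 on the higher side and Chac2 at 4.21 against 12.1 and Chac1 at 2.07 against 6.22 on the lower.

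The selenocysteine members draw on a shared machinery. Of its 7 tested genes, 4 rose and 2 fell in brown fat relative to white fat (2 and 4 with TPM rescaling), led by Sephs2, which makes the selenium donor, at 92.7 against 20.9 FPKM, and Pstk, the kinase of the selenocysteine transfer RNA, at 22.8 against 7.26 FPKM. The lower ones were the elongation factor gene Eefsec, at 1.70 against 2.53 FPKM, and Sephs1, at 3.75 against 4.402 FPKM, both of which missed the threshold with quantile normalization. Against soleus, brown fat had 4 higher and none lower (2 and 2 with median of ratios scaling), Sephs2 at 92.7 against 10.4 FPKM and Sepsecs, the synthase of the pathway, at 7.40 against 1.71 FPKM. White fat had 5 higher, Sepsecs at 5.22 against 1.71 and Sephs2 at 20.9 against 10.4 FPKM, and 2 lower, Pstk at 7.26 against 27.5 FPKM and Secisbp2, of the selenocysteine insertion complex, at 2.87 against 3.47 FPKM, the second of which turned higher with TPM rescaling.

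Other selenoprotein genes took different directions. Of 8 tested, 1 was higher and 5 lower in brown fat relative to white fat (1 and 8 with TPM rescaling, where 9 were tested). The higher one was Dio2, the deiodinase that activates thyroid hormone, at 42.2 against 0.405 FPKM, and Selenon at 1.57 against 10.4 FPKM and Selenom at 6.62 against 18.4 FPKM fell furthest. Selenop, the selenium carrier of plasma and the most abundant of them in both fats, though not in soleus, stood at 411 FPKM in brown fat, 686 in white fat, against 101 in soleus. Against soleus brown fat had 4 higher, led by Dio2 at 42.2 against 1.403 FPKM and Selenop, and 2 lower, Selenow at 150 against 758 FPKM and Selenom at 6.62 against 13.6 FPKM (4 and 4 with median of ratios scaling). White fat had 5 higher, led by Selenop and Selenon, the second at 10.4 against 1.88 FPKM, and 2 lower, Selenow at 270 against 758 FPKM and Dio2 at 0.405 against 1.403 FPKM.

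Enzymes that form superoxide or peroxide were mostly higher in white fat. Of 13 tested, 4 were higher and 7 lower in brown fat relative to white fat (none and 11 with TPM rescaling, where 14 were tested). The lower ones were led by subunits of the phagocyte oxidase, Cyba at 6.65 ± 0.686 against 44.0 ± 10.2 FPKM and Ncf1 at 0.382 against 6.79 FPKM, genes that macrophages use, and macrophage markers summed to 46.3 to 54.1 against 500 to 610 FPKM. On the higher side was the peroxisomal oxidase gene Acox3, at 15.1 against 8.66 FPKM, which missed the threshold with TPM rescaling. Against soleus 8 were higher and 1 lower in brown fat, led by the monoamine oxidase gene Maob at 57.0 against 8.67 FPKM, and the lower one was Cyba at 6.65 against 11.6 FPKM. All 13 were higher in white fat than in soleus (12 with median of ratios scaling). The xanthine dehydrogenase gene Xdh stood at 45.9 against 4.36 FPKM and Cybb, the catalytic phagocyte subunit, at 6.70 against 0.490 FPKM.

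The factor NRF2, encoded by Nfe2l2, drives many antioxidant genes through the antioxidant response element. Nfe2l2 itself stood at 25.4, 24.2 and 21.3 FPKM in brown fat, white fat and soleus, the highest mean of its list. Of 7 tested genes of the list, 2 were higher and 3 lower in brown fat relative to white fat (none and 5 with TPM rescaling). The repressor gene Keap1, at 14.3 against 10.8 FPKM, and Bach1, at 4.67 against 3.85 FPKM, were higher and turned lower with TPM rescaling. The heme oxygenase gene Hmox1, at 5.49 against 19.4 FPKM, and the quinone reductase gene Nqo1, at 0.871 against 2.39 FPKM, were lower. Against soleus brown fat had 2 higher, Nfe2l2 and Bach1, which both turned lower with median of ratios scaling, and 3 lower, with Nqo1 at 0.871 against 16.7 FPKM and the small Maf gene Maff at 0.934 against 3.35 FPKM. White fat had 1 higher, Hmox1 at 19.4 against 3.44 FPKM, and 4 lower, with Nqo1 at 2.39 against 16.7 and Maff at 0.830 against 3.35 FPKM (3 and 2 with TPM rescaling).

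The core of that element, TGACNNNGC on either strand, was searched for in RefSeq promoter windows of 300 bases, from 250 before to 50 after the start. Of 11 windows for 8 of the members, 1 held it, that of Sod1, beside 12.4% of all 32851 windows of that length. The Sod1 window is chr16:90220512-90220811 (plus strand, GRCm38.p6), with the match, which lies on the minus strand, in capitals.
Sod1: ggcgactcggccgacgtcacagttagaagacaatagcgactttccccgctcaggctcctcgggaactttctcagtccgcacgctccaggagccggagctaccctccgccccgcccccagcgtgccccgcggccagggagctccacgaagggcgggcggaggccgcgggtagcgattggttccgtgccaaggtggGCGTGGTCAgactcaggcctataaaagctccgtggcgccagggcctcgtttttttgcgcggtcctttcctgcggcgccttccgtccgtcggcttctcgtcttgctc
A match is a description of the letters, and no match says only that they are absent from these windows.

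The genes whose profile over the 9 libraries lay closest to each member, by Euclidean distance of centred log2(FPKM + 1) among 4879 genes whose mean reached 10 FPKM in some tissue, were named for description. For Sod2 they were Pdha1, of pyruvate dehydrogenase, at 841, 120 and 289 FPKM in brown fat, white fat and soleus (distance 0.23), and the citrate synthase gene Cs at 891, 144 and 306 FPKM (distance 0.27). For Cat they were Mtmr9 (0.22) and Tmbim6 (0.23), for Sod1 Derl1 and Tor2a (0.28 each), and for Sod3 Tmem120a (0.27) and Npc2 (0.37). Gpx4 lay nearest to Trappc4 (0.21) and Stk16 (0.33), Gpx1 to Gstz1 (0.34) and Rab3d (0.41), and Gpx7 to Ckb (0.34) and Cd320 (0.38). Gpx3 and Gpx8 had no neighbour as close, with Proca1 at 0.59 and Ptger3 at 0.79 for Gpx3 and Atat1 at 0.84 and Ppa1 at 0.98 for Gpx8. The 9 libraries are of 3 tissues, so the profiles share those tissue differences, and the distances are given as a description.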

How the data were processed

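RNA-seq libraries of total RNA extracted with TRIzol were made with the TruSeq RNA v2 kit, per the labels' protocols, and aligned with TopHat 1.4.1 and quantified with Cufflinks 2.0.1 on mm9, per the submitters' processing notes. The authors deposited 1 matrix of FPKM values per RefSeq accession. Its 18401 rows were named by RefSeq tables (18305 rows) or GENCODE M21 (38), both of GRCm38 and used for names only. The 55 rows with no symbol and the 3 with several were left out (0.0339 to 0.36% of summed FPKM), and rows were summed per symbol (541 symbols had several), giving 17753 genes.

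The 9913 genes that reached 1 FPKM in 3 or more libraries entered a limma 3.58.1 fit (R 4.3.3) of log2(FPKM + 1) over all 9 libraries. The fit modelled the trend of variance with level and left 6 degrees of freedom. Fold changes on this scale understate those of low genes. P-values were Benjamini-Hochberg adjusted per comparison over all genes tested, and called under 0.05. Shares within a library were compared by two-sided exact permutation tests (scipy 1.17.1). The fit was also run on simulated data with independent noise per library and changes in brown fat alone. The outcome is not reported here and no result rests on it. On the real data 22 alternatives were run. FPKM values carry no fragment counts, so absolute depth is unknown and no counting interval is given.

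Members, lists and tests were chosen with earlier results of these data known. From each list and comparison, the 2 called genes per direction with the largest log2 fold change and the gene with the highest mean were named. Some genes that the rule names are not reported here. The Ero1 genes stand in 2 lists each, and Dio2 is also a brown adipocyte marker.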

Additional observations from a re-analysis of the deposited data

How the results depend on the processing

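Of 594 member results over 22 alternatives and 3 comparisons, 583 kept their direction and their side of the threshold, 2 became weaker, 3 stronger and 6 reversed. Some of these results could hardly change. Taking the highest row per symbol left the member values as they were, since each member had a single row. Leaving out a library of the tissue not compared left the fold change as it was. For brown over white fat, 3 members were called higher with TPM rescaling and 3 with quantile normalization, where 5 were called lower. Sod1 turned to -0.08 with upper quartile scaling, -0.51 with TPM rescaling and -0.94 with quantile normalization, and Cat to -0.21 with TPM rescaling and -0.58 with quantile normalization. Gpx3 gave 0.08 with quantile normalization and Gpx4 0.08 with TPM rescaling. Gpx7 for brown fat over soleus gave -0.02 with median of ratios scaling and 0.31 (limma adjusted p = 0.043) with array weights. The difference in Gpx4 share between brown and white fat, -0.0615 percentage points, ranged from -0.499 to 0.37 when single libraries were left out. The cause was not tested. Among all genes called for brown over white fat, 52.2% were higher, against 21.3% with TPM rescaling and 42.2% with upper quartile scaling. For brown fat over soleus the share was 67.4%, against 49% with median of ratios scaling, 50.7% with upper quartile scaling and 54.6% with quantile normalization. For white fat over soleus it was 64.7%, against 79.6% with TPM rescaling, 48% with median of ratios scaling and 52.3% with quantile normalization. Of 1320 list counts, 1197 stayed within 1.5 times and 123 did not. Libraries of the same replicate number did not deviate together (r from -0.22 to 0.077 across genes), so the numbers were not taken to pair samples. Between tissues, libraries of different number gave r from -0.189 to 0.361, the highest for white fat replicate 1 with soleus replicate 2. Whether libraries of different number share a mouse was not tested. With a replicate block the members called stayed at 5 higher and 3 lower, 8 higher and 0 lower, and 8 higher and 1 lower. The number of fragments behind low values such as those of Gpx7 is unknown, which limits how firmly its small difference between brown fat and soleus can be read.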
